A study of Mus musculus with 24 samples.

Results

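The cell division genes are 40 listed mouse genes whose products copy DNA, drive cells into mitosis or separate the chromosomes and the daughter cells. They were listed by name with earlier results of these data known, so counts over the list describe it and do not test it. Each was read from the probe set annotated to it, or from the one with the highest mean over 24 arrays where a gene had several. Of the 40, 39 were measured, among 19938 named genes in all. Ccnb1, cyclin B1, is not analysed here because no probe set was annotated to it alone. The measurements come from one-colour Affymetrix arrays of total RNA from epididymal white fat (EWAT), the fat depot beside the epididymis, of 24 wildtype male C57Bl/6 mice, 6 in each of 4 groups. The groups were germ-free mice fed lard, conventional mice fed lard, germ-free mice fed menhaden fish oil and conventional mice fed menhaden fish oil. Germ-free mice live without microbes, and conventional mice carry a normal microbiota. All mice ate a high fat diet, isocaloric between the fat sources and with 45% of its energy from fat, for 11 weeks. The mice were 11 weeks old when the diets began, and all were fasted for 4 h before tissue was taken. Neither the colonies nor the housing are given, so bacterial status and colony cannot be told apart. Of 14 adipocyte markers, used to check the labelled tissue, the lowest group mean was a log2 value of 9.71 (Slc2a4, in lard-fed conventional mice), and the array medians were 7.09 to 7.20.

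A dividing cell first loads the MCM helicase onto replication origins and makes nucleotides, then copies its DNA, and then enters mitosis when cyclin A and cyclin B activate the kinase CDK1. Polo-like and Aurora kinases build the spindle, the checkpoint kinases hold the cell until every kinetochore is attached, and the anaphase-promoting complex (APC/C) then triggers separation. Transcripts of these genes are low in resting cells and rise together in cycling ones, so they are widely used as markers of proliferation. In adipose tissue, mature adipocytes are regarded as largely non-dividing, while macrophages, progenitors and endothelial cells can divide.

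Shared promoter elements are part of how these genes are switched together. E2F factors act mainly on genes of DNA replication. Genes of mitosis typically carry a CCAAT box, bound by NF-Y, and a cell cycle genes homology region (CHR), bound by the MuvB core through LIN54. Promoter windows of 300 bases, from 250 before to 50 after each annotated start, were taken from RefSeq on GRCm38.p6. They matched 34 of the 39 measured genes, with 36 windows because Ect2 and Prc1 have 2 each. Ccna2, Aurkb, Pbk, Kif20a and Tpx2 had none. The first windows shown are from mitotic genes. Each line gives the 160 bases just before the start (for Mki67, bases 200 to 41 before it), 5′ to 3′ on the gene's strand. Capitals mark the letters of a CCAAT box (CCAAT, or ATTGG on the other strand), of a CHR (TTTGAA, or TTCAAA on the other strand, and TTCGAA or TTTAAA, which read alike on both) or of an E2F site. The windows lie at chr10:69352913-69353072 (Cdk1), chr9:70421555-70421714 (Ccnb2), chr4:118437344-118437503 (Cdc20), chr19:37376222-37376381 (Kif11), chr11:99024190-99024349 (Top2a) and chr7:135716420-135716579 (Mki67). Only that of Kif11 is on the plus strand. Matches outside the printed bases are not shown, such as the CHR letters of Ccnb2 that begin 167 bases before and 4 bases after its start.
Cdk1: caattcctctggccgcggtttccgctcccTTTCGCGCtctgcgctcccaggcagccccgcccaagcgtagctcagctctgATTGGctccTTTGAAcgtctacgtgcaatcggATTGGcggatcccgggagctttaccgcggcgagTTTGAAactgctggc
Ccnb2: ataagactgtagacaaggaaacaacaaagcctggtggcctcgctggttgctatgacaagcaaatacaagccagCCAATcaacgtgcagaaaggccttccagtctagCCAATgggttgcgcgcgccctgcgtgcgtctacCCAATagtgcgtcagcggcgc
Cdc20: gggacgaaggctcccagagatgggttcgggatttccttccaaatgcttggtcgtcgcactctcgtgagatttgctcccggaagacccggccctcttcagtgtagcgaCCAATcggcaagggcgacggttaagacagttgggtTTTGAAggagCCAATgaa
Kif11: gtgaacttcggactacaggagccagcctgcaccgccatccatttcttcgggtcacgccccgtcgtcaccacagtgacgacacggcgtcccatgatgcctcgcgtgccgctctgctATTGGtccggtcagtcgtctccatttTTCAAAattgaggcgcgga
Top2a: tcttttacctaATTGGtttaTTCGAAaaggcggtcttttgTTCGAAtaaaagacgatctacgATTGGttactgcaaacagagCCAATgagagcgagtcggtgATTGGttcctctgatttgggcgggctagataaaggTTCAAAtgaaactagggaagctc
Mki67: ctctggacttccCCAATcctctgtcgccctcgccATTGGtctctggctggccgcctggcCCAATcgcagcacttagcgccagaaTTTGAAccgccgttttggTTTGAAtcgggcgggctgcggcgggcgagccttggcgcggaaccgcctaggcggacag

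The next windows, from genes of DNA replication, show E2F letters. They lie at chr8:75109349-75109508 (Mcm5, plus strand), chr1:128359706-128359865 (Mcm6, minus strand) and chr11:98907991-98908150 (Cdc6, plus strand), each again the 160 bases before the start. The E2F letters searched were TTTGGCGC, TTTCCCGC, TTTCGCGC, TTTGCCGC and TTTGGCGG and their reverse complements on the other strand. In the first capital runs of Mcm5 and Mcm6 such matches on opposite strands overlap, and each was counted. Mcm5 also has CHR letters that begin 221 bases before its start, outside the printed bases.
Mcm5: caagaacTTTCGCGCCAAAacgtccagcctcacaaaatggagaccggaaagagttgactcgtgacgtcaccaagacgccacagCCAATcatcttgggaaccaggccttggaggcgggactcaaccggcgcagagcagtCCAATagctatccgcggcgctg
Mcm6: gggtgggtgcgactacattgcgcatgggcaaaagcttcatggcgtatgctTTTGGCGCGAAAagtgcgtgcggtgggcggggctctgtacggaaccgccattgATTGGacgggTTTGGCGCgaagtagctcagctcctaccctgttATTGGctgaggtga
Cdc6: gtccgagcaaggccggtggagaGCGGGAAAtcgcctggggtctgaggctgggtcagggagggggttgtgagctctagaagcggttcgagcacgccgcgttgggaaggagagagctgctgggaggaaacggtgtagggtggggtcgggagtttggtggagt

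A CCAAT box was found in 27 of the 36 windows (75.0%), against 37.4% of all 32851 promoters of the table. CHR letters stood in 28 of 36 (77.8%), against 28.8% of all promoters, and TTTGAA alone in 63.9%, against 17.9%. Both elements stood together in 24 windows (66.7%), against 11.3% of all promoters. E2F letters were found in 6 windows (16.7%), against 2.8%, and 4 of these 6 belong to the 8 genes of DNA replication (Mcm3, Mcm5, Mcm6 and Cdc6); the other two are Cdk1 and Melk. Among the windows of spindle, motor and cytokinesis genes 9 of 10 held CHR letters, and among those of replication genes 3 of 8. The windows of Nuf2, Nusap1 and Tyms held none of the letters searched. These shares describe letters in a window and are not a measurement of binding.

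**Figure D1:**
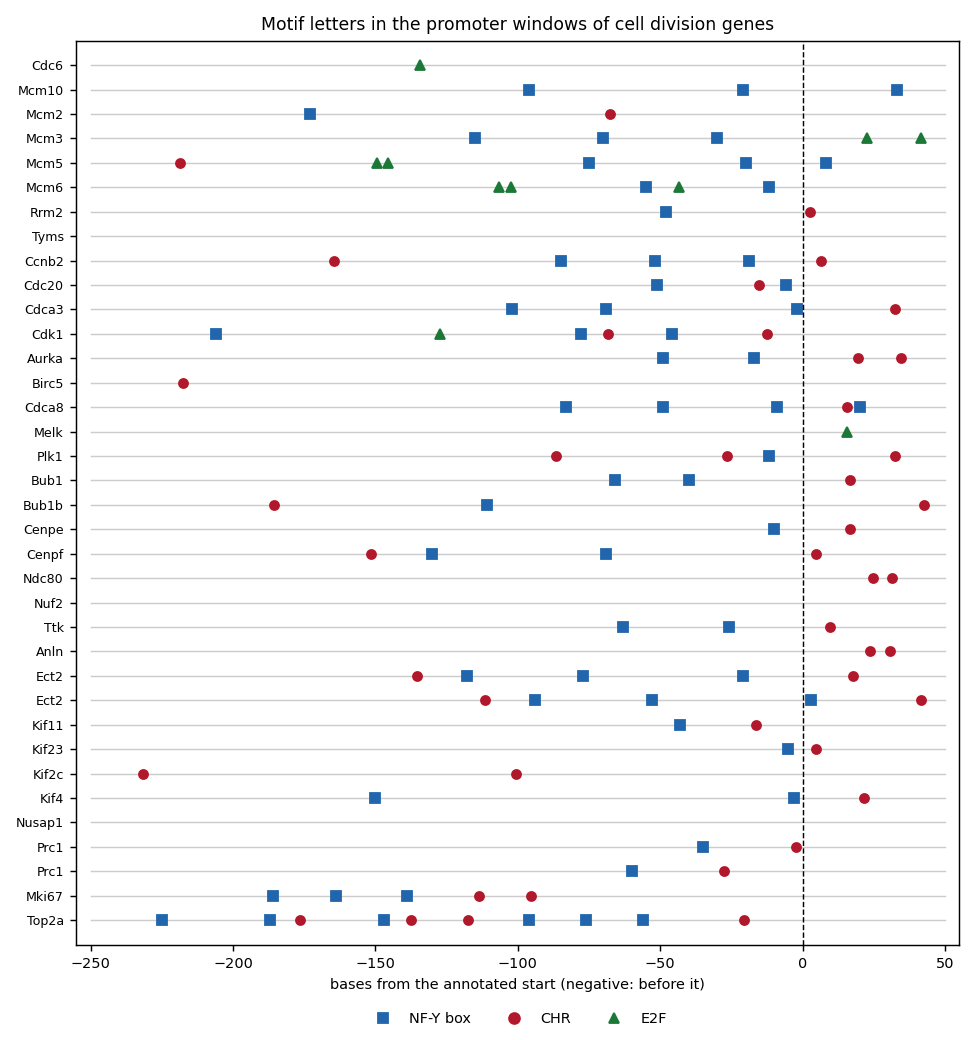
Positions of matching letters in the 36 promoter windows of 34 cell division genes. The horizontal axis is the distance in bases from the annotated start (dashed line), each grey line is 1 window, squares mark the NF-Y box, circles the CHR and triangles E2F letters. CHR letters stand in 28 windows, and E2F letters in 6.

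With lard, cell division genes were higher than with fish oil, in germ-free and in conventional mice alike. In germ-free mice 38 of 39 were higher with lard and 0 lower, by the limma test with Benjamini-Hochberg adjustment over all 19938 genes and a threshold of 0.05 that is used throughout. In the same comparison 20.4% of all genes were higher. In conventional mice 38 of 39 were higher and 0 lower, against 15.4% of all genes higher. The median log2 difference of the 39, lard minus fish oil, was 0.90 in germ-free mice (all genes -0.08) and 0.80 in conventional mice (all genes -0.04). In germ-free mice 29 of the 39 passed and were at least 1.5-fold higher, against 6.37% of all genes, and in conventional mice 31, against 5.4% of all genes. Lower with lard were 27.1% of all genes in germ-free and 15.6% in conventional mice. Differences ran from 0.22 for Tyms to 1.73 for Bub1 in germ-free mice and from 0.27 for Cdc6 to 1.61 for Bub1 in conventional mice, with standard errors (SE) of 0.07 to 0.24. In a whole depot, more dividing cells and more of these transcripts per cell cannot be told apart.

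Groups whose values did not overlap were counted as well. All 6 lard-fed mice lay above all 6 fish oil-fed mice in 34 of the 39 genes in germ-free mice, against 13.4% of all genes. The other five there were Mcm10, Cdc6, Aurka, Birc5 and Ndc80. In conventional mice it was again 34 of 39, against 8.01% of all genes, and the other five were Cdc6, Pbk, Nuf2, Kif23 and Anln. Cdc6 overlapped in both.

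**Figure D2:**
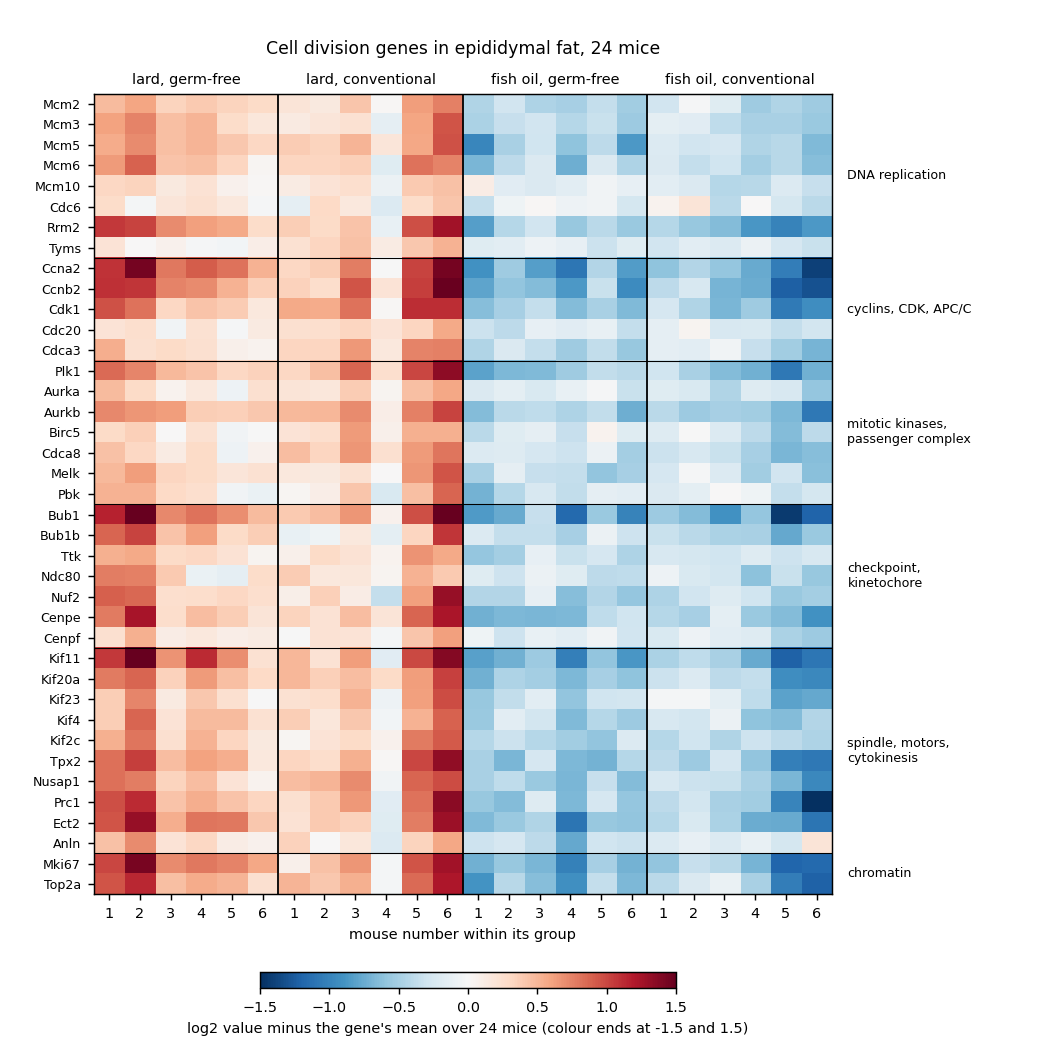
Cell division genes (rows, by role) in 24 mice (columns, by group). Colour is the log2 value minus that gene's mean over the 24 mice, red above and blue below, with the scale ending at 1.5 on either side. Most cells are red under lard and blue under fish oil. Lard-fed conventional mouse 4 is the palest of its group, and mouse 6 the darkest.

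The mean log2 value of the 39 genes was compared by mouse. In germ-free mice it was 7.60 to 8.19 (median 7.79) with lard, against 6.83 to 7.06 (median 6.95) with fish oil. In conventional mice it was 7.39 to 8.36 (median 7.77) with lard, against 6.67 to 7.14 (median 6.99) with fish oil. The lowest lard-fed mouse thus lay above the highest fish oil-fed one in both pairs. The highest and lowest mouse of a group were counted over the 39 genes. Of the lard-fed germ-free mice, mouse 2 (mean 8.19) was highest in 25 of 39 genes and mouse 1 (8.07) in 14, while mouse 6 (7.60) was lowest in 25. Of the lard-fed conventional mice, mouse 6 (8.36) was highest in 35 and mouse 4 (7.39) lowest in 38. The fish oil-fed groups were more mixed. Of the fish oil-fed germ-free mice, no single mouse led: mouse 3 was highest in 16 genes and mouse 5 in 14, while mouse 4 was lowest in 14, mouse 1 in 9 and mouse 6 in 8. Of the fish oil-fed conventional mice, mice 1, 2 and 3 were highest in 14, 15 and 7 genes, and mice 6 (6.67) and 5 (6.73) were lowest in 21 and 16.

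Some mice stood apart from their groups. Without lard-fed conventional mice 5 and 6, which had the highest means, 36 of 39 were higher with lard in conventional mice (12.2% of all genes), with a median of 0.61, and the calls of Pbk and Anln ended. Lard-fed germ-free mouse 4 had a mean of 9.24 over 21 transcripts of the intestinal epithelium, with 6.62 in mouse 5 and 6.45 in mouse 2 and 5.82 to 6.26 in the remaining mice. Without mice 2, 4 and 5 of that group, 35 of 39 were higher in germ-free mice (14.5% of all genes) and Mcm10, Birc5 and Cenpf no longer passed. Fish oil-fed germ-free mouse 6 had a mean of 6.50 over 10 transcripts of epididymis and testis, against 5.57 to 5.88 in the other mice. Without it the count in germ-free mice stayed at 38.

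The genes of DNA replication were taken first. Of 8 measured, 7 were higher with lard in germ-free mice (20.4% of all genes) and 7 in conventional mice (15.4%), Cdc6 being the exception in both. Median log2 differences of the 8 were 0.84 in germ-free mice and 0.70 in conventional mice. Mcm2, Mcm3, Mcm5 and Mcm6 are subunits of the replicative helicase. For Mcm5 the lowest, median and highest log2 values were 8.77, 8.94 and 9.17 in lard-fed germ-free mice, against 7.48, 7.92 and 8.16 in fish oil-fed germ-free mice. In conventional mice they were 8.64, 8.91 and 9.41 with lard, against 7.80, 8.10 and 8.25 with fish oil. The groups did not overlap, and the differences were 1.09 ± 0.12 in germ-free mice (SE; limma adjusted p = 3.2e-07) and 0.87 ± 0.12 in conventional mice (adjusted p = 5.6e-06). Mcm2 gave 8.73, 8.80 and 9.03 in lard-fed germ-free mice, against 7.92, 7.99 and 8.15 in fish oil-fed germ-free mice. In conventional mice Mcm2 had 8.46, 8.75 and 9.19 with lard, against 7.90, 8.07 and 8.42 with fish oil, so its groups came within 0.04 of each other there without overlapping. Its differences were 0.83 ± 0.11 in germ-free mice (limma adjusted p = 2e-06) and 0.69 ± 0.11 in conventional mice (adjusted p = 2e-05). Mcm3 and Mcm6 differed by 0.86 and 0.91 in germ-free mice and by 0.70 and 0.80 in conventional mice.

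Nucleotide supply genes differed from each other in size. Rrm2, the regulated subunit of ribonucleotide reductase, was 2.33-fold higher in germ-free (limma adjusted p = 5.7e-06) and 2.39-fold higher in conventional mice (adjusted p = 5.6e-06). Tyms, which makes thymidylate, moved less. Its lowest, median and highest values were 7.81, 7.88 and 8.05 in lard-fed germ-free mice, against 7.52, 7.68 and 7.77 in fish oil-fed germ-free mice, a difference of 0.22 ± 0.07 (adjusted p = 0.0072). In conventional mice Tyms gave 7.97, 8.21 and 8.37 with lard, against 7.51, 7.61 and 7.76 with fish oil, a difference of 0.56 ± 0.07 (adjusted p = 7.8e-07). Neither pair of groups overlapped. The replication initiation factor Mcm10 rose by 0.28 in germ-free and 0.52 in conventional mice.

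Cdc6, which loads the helicase onto origins, was the member that did not pass in either diet comparison. It had values of 6.65, 6.85 and 6.96 in lard-fed germ-free mice, against 6.32, 6.61 and 6.70 in fish oil-fed germ-free mice. With lard in conventional mice it had 6.47, 6.90 and 7.09, against 6.27, 6.55 and 6.87 with fish oil. The groups overlapped, and the difference was 0.27 ± 0.11 in both (adjusted p = 0.051 in germ-free and 0.066 in conventional mice). Unadjusted limma p-values were under 0.05 in both for all 39 genes. Of all 19938 genes, 10962 had such values in germ-free and 7952 in conventional mice. With all mice kept, Cdc6 passed in germ-free mice after array centring, repeated quantile normalization, the filter on low values, trend and robust variance or a fit of only the groups compared, and in conventional mice with the liver marker mean as a covariate. It also passed in some fits that left out 1 mouse, for instance in germ-free mice without lard-fed germ-free mouse 2 or 6 and in conventional mice without lard-fed conventional mouse 1 or 4.

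Cyclins, CDK1 and the APC/C genes followed. All 5 measured were higher with lard in germ-free (20.4% of all genes) and in conventional mice (15.4%). In each, 5 of 5 did not overlap, against 13.4% and 8.01% of all genes. Ccna2, cyclin A2, had 8.73, 9.08 and 9.65 in lard-fed germ-free mice, against 7.13, 7.38 and 7.78 in fish oil-fed germ-free mice. In conventional mice it had 8.21, 8.78 and 9.65 with lard, against 6.81, 7.54 and 7.77 with fish oil. That is 3.24-fold in germ-free (1.70 ± 0.20 on the log2 scale, adjusted p = 7.4e-07) and 2.73-fold in conventional mice (1.45 ± 0.20, adjusted p = 6e-06). Ccnb2, cyclin B2, had 9.35, 9.72 and 10.08 in lard-fed germ-free mice, against 8.05, 8.27 and 8.65 in fish oil-fed germ-free mice. In conventional mice Ccnb2 had 9.19, 9.64 and 10.47 with lard, against 7.68, 8.27 and 8.75 with fish oil. Lard-fed and fish oil-fed mice were fully apart, with differences of 1.45 ± 0.20 in germ-free (limma adjusted p = 5.7e-06) and 1.48 ± 0.20 in conventional mice (adjusted p = 6e-06). Cdk1, the kinase that both cyclins activate, had 9.08, 9.33 and 9.88 in lard-fed germ-free mice, against 8.26, 8.36 and 8.57 in fish oil-fed germ-free mice. It had 8.94, 9.61 and 10.03 in lard-fed conventional mice, against 7.87, 8.32 and 8.68 in fish oil-fed conventional mice. Neither pair of groups overlapped, and Cdk1 was 2.08-fold higher in germ-free (1.06 ± 0.16, adjusted p = 1.8e-05) and 2.53-fold higher in conventional mice (1.34 ± 0.16, adjusted p = 1.5e-06). Cdc20, the activator of APC/C in mitosis, rose less, by 0.37 in germ-free and 0.52 in conventional mice. Cdca3, a trigger of mitotic entry, rose by 0.65 in germ-free and 0.81 in conventional mice.

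Mitotic kinases and the chromosomal passenger complex came next. All 7 genes were higher with lard in germ-free (20.4% of all genes) and in conventional mice (15.4%). Their medians were 0.57 in germ-free and 0.68 in conventional mice. Aurkb, the kinase of the passenger complex, had 8.87, 9.02 and 9.23 in lard-fed germ-free mice, against 7.78, 8.07 and 8.14 in fish oil-fed germ-free mice. With lard in conventional mice it had 8.61, 9.11 and 9.52, against 7.44, 7.97 and 8.10 with fish oil. No groups overlapped, and the differences were 1.02 ± 0.12 in germ-free (adjusted p = 8.2e-07) and 1.22 ± 0.12 in conventional mice (adjusted p = 1.1e-07). Plk1, polo-like kinase 1, had 8.16, 8.31 and 8.71 in lard-fed germ-free mice, against 7.05, 7.26 and 7.48 in fish oil-fed germ-free mice. With lard in conventional mice Plk1 had 8.11, 8.52 and 9.20, against 6.78, 7.17 and 7.56 with fish oil. Its groups were fully apart, 2.14-fold in germ-free (1.10 ± 0.15, adjusted p = 6e-06) and 2.57-fold in conventional mice (1.36 ± 0.15, adjusted p = 6.2e-07). Cdca8, borealin, a targeting subunit of the passenger complex, had 6.73, 7.01 and 7.24 in lard-fed germ-free mice, against 6.29, 6.58 and 6.72 in fish oil-fed germ-free mice. In conventional mice Cdca8 had 7.04, 7.36 and 7.61 with lard, against 6.12, 6.39 and 6.56 with fish oil. The highest fish oil-fed germ-free value came within 0.01 of the lowest lard-fed one, while conventional mice left a wider gap. The differences of Cdca8 were 0.45 ± 0.10 in germ-free (adjusted p = 0.00097) and 0.98 ± 0.10 in conventional mice (adjusted p = 2.1e-07). Birc5, survivin, of the same complex, rose by 0.34 in germ-free and 0.68 in conventional mice. The spindle kinase Aurka rose by 0.37 in germ-free and 0.61 in conventional mice. The mitotic kinases Melk and Pbk rose by 0.75 and 0.57 in germ-free and by 0.67 and 0.45 in conventional mice.

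**Figure D3:**
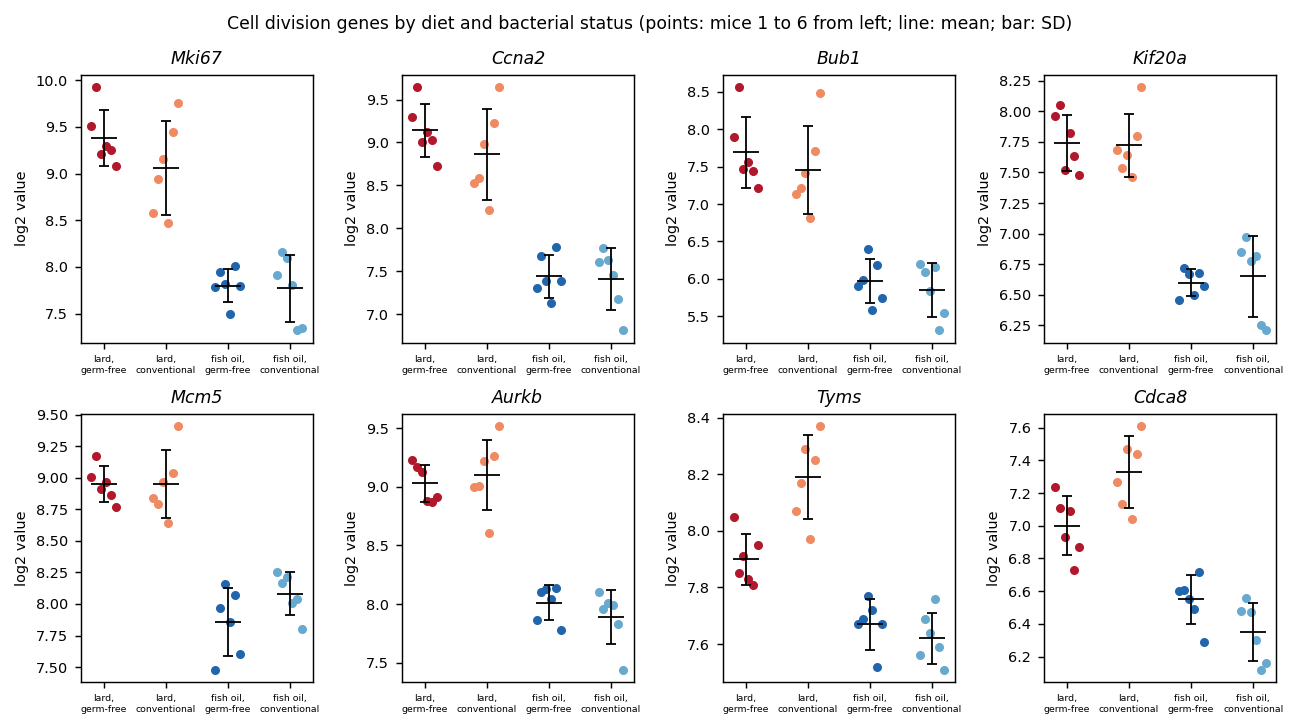
Log2 values of 8 cell division genes in each of 24 mice. Points are mice, from mouse 1 on the left to mouse 6 on the right within a group, the horizontal line is the group mean and the bar the standard deviation; each panel has its own axis, which does not start at 0. In all 8 panels the lard-fed mice lie above the fish oil-fed mice of the same bacterial status, and in Tyms and Cdca8 lard-fed germ-free mice have lower means (7.90 and 7.0) than lard-fed conventional mice (8.19 and 7.33).

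All 7 checkpoint and kinetochore genes were higher with lard in germ-free (20.4% of all genes) and in conventional mice (15.4%). Their medians were 0.90 in germ-free and 0.71 in conventional mice. Bub1, a checkpoint kinase, had the largest difference of the 39 genes in both. Its lowest, median and highest values were 7.22, 7.52 and 8.57 in lard-fed germ-free mice, against 5.58, 5.95 and 6.40 in fish oil-fed germ-free mice. In conventional mice Bub1 had 6.81, 7.31 and 8.49 with lard, against 5.31, 5.96 and 6.20 with fish oil. That is 3.31-fold in germ-free (1.73 ± 0.24, adjusted p = 4.2e-06) and 3.05-fold in conventional mice (1.61 ± 0.24, adjusted p = 1.3e-05). In both comparisons the lowest lard-fed mouse lay above the highest fish oil-fed one. Cenpe, a kinetochore motor, had 6.73, 6.94 and 7.77 in lard-fed germ-free mice, against 5.81, 5.86 and 6.23 in fish oil-fed germ-free mice. It had 6.73, 6.93 and 7.75 in lard-fed conventional mice, against 5.62, 6.01 and 6.39 in fish oil-fed conventional mice. Its groups did not overlap, and it differed by 1.13 ± 0.17 in germ-free (adjusted p = 1.5e-05) and by 1.08 ± 0.17 in conventional mice (adjusted p = 3.3e-05). Ttk, the kinase MPS1, had 5.80, 6.05 and 6.33 in lard-fed germ-free mice, against 5.17, 5.36 and 5.63 in germ-free mice given fish oil. In conventional mice it had 5.81, 6.00 and 6.43 with lard, against 5.45, 5.50 and 5.56 with fish oil. Ttk groups were apart in both, with a rise of 0.71 ± 0.10 in germ-free (adjusted p = 8.3e-06) and 0.57 ± 0.10 in conventional mice (adjusted p = 0.00013). Bub1b, the checkpoint protein BUBR1, rose by 0.90 in germ-free and 0.71 in conventional mice. Ndc80 and Nuf2, partners in the microtubule-binding complex of the kinetochore, rose by 0.58 and 0.91 in germ-free and by 0.63 and 0.74 in conventional mice. The kinetochore protein gene Cenpf rose by 0.38 in germ-free and 0.51 in conventional mice.

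All 10 genes of the spindle, its motors and cytokinesis were higher with lard in germ-free (20.4% of all genes) and in conventional mice (15.4%). Their medians were 1.04 in germ-free and 1.08 in conventional mice. Kif20a, a kinesin of the central spindle, had 7.48, 7.72 and 8.05 in lard-fed germ-free mice, against 6.46, 6.62 and 6.72 in fish oil-fed germ-free mice. With lard in conventional mice it had 7.46, 7.66 and 8.20, against 6.21, 6.80 and 6.97 with fish oil. The groups did not overlap, and the differences were 1.14 ± 0.13 in germ-free (adjusted p = 7.2e-07) and 1.07 ± 0.13 in conventional mice (adjusted p = 2e-06). Ect2, the exchange factor that activates RhoA for cytokinesis, had 7.71, 8.10 and 8.61 in lard-fed germ-free mice, against 6.21, 6.73 and 6.85 in fish oil-fed germ-free mice. In conventional mice it had 7.12, 7.68 and 8.59 with lard, against 6.21, 6.70 and 7.07 with fish oil. The groups of Ect2 were narrowly apart in conventional mice and far apart in germ-free mice. It was 2.74-fold higher in germ-free (1.45 ± 0.19, adjusted p = 2e-06) and 2.13-fold higher in conventional mice (1.09 ± 0.19, adjusted p = 7.8e-05). Nusap1, a spindle-associated protein, had 7.71, 8.06 and 8.49 in lard-fed germ-free mice, against 6.98, 7.13 and 7.32 in fish oil-fed germ-free mice. It had 7.61, 8.27 and 8.64 in lard-fed conventional mice, against 6.70, 7.26 and 7.42 in fish oil-fed conventional mice. Again no groups overlapped, and Nusap1 differed by 0.96 ± 0.15 in germ-free (adjusted p = 2.3e-05) and 1.09 ± 0.15 in conventional mice (adjusted p = 8.1e-06). Kif11, the motor that separates the spindle poles, was 3.18-fold higher in germ-free and 2.50-fold higher in conventional mice. Tpx2, which activates Aurora A, rose by 1.15 in germ-free and 1.22 in conventional mice. Prc1, the bundler of the central spindle, rose by 1.12 in germ-free and 1.25 in conventional mice. The kinesins Kif23, Kif4 and Kif2c rose by 0.70, 0.87 and 0.84 in germ-free and by 0.78, 0.77 and 0.77 in conventional mice. Anln, anillin of the contractile ring, rose by 0.69 in germ-free mice and by 0.33 ± 0.12 in conventional mice (adjusted p = 0.042). In conventional mice its groups overlapped: fish oil-fed conventional mouse 6 had 8.42, above 3 of the 6 lard-fed mice. The call of Anln there ended when lard-fed mouse 1, 3, 5 or 6 or fish oil-fed mouse 1, 2, 3, 4 or 5 was left out, and that of Pbk when lard-fed mouse 6 was. With all mice kept, Anln also did not pass there after array centring, repeated quantile normalization or a fit of only the groups compared. The same held with the liver or the macrophage marker mean as a covariate.

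The last genes are the common proliferation markers. Mki67, which encodes the Ki-67 antigen, had 9.08, 9.27 and 9.93 in lard-fed germ-free mice, against 7.49, 7.81 and 8.01 in fish oil-fed germ-free mice. In conventional mice it had 8.47, 9.05 and 9.76 with lard, against 7.32, 7.86 and 8.16 with fish oil. No groups overlapped, with a 2.98-fold difference in germ-free (1.58 ± 0.19, adjusted p = 9e-07) and a 2.44-fold difference in conventional mice (1.29 ± 0.19, adjusted p = 1.3e-05). Top2a, the topoisomerase that untangles chromosomes, had 8.14, 8.43 and 9.03 in lard-fed germ-free mice, against 6.98, 7.24 and 7.54 in germ-free mice given fish oil. It had 7.86, 8.42 and 9.11 in lard-fed conventional mice, against 6.68, 7.45 and 7.79 in conventional mice given fish oil. No groups of Top2a overlapped, and it was 2.45-fold higher in germ-free (1.29 ± 0.20, adjusted p = 1.4e-05) and 2.23-fold higher in conventional mice (1.16 ± 0.20, adjusted p = 6.4e-05). Top2a has a second probe set, which disagreed. Its group means were 3.64 in lard-fed germ-free, 3.90 in lard-fed conventional, 3.92 in fish oil-fed germ-free and 4.17 in fish oil-fed conventional mice, near the low end of the deposited log2 values, which run from 2.19 to 14.59.

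**Figure D4:**
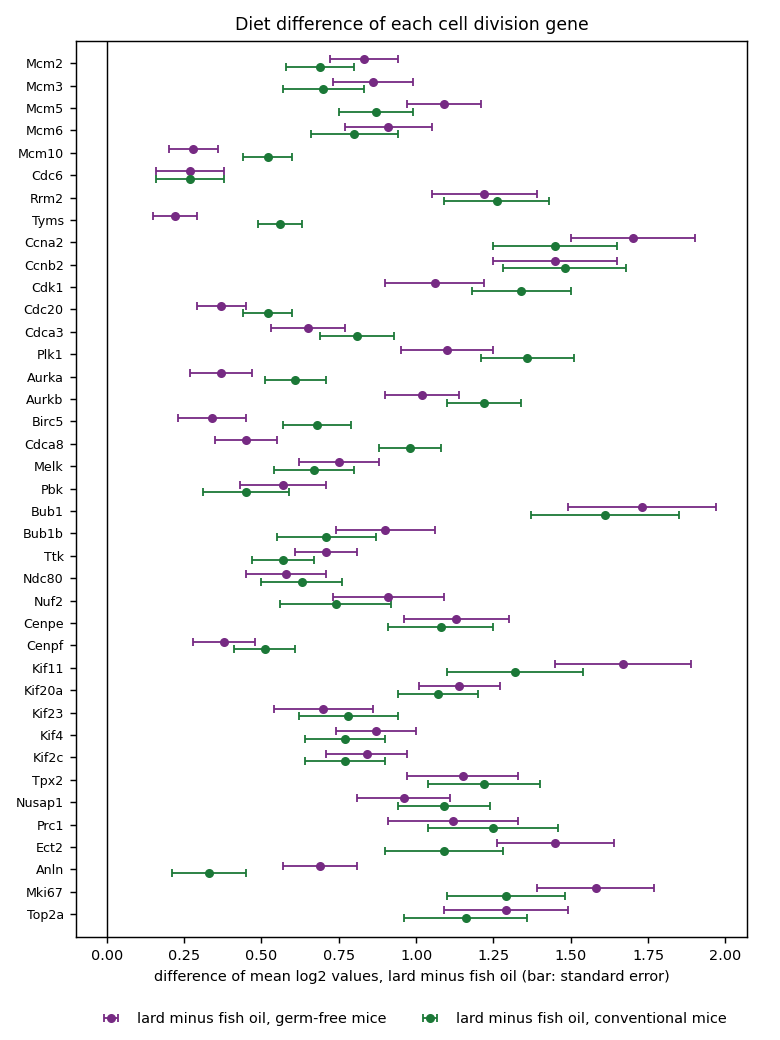
Difference of mean log2 values, lard minus fish oil, for each of 39 cell division genes in germ-free mice (purple) and conventional mice (green). Bars are the standard errors of the limma fit. All points are above 0, between 0.22 and 1.73 in germ-free mice and between 0.27 and 1.61 in conventional mice.

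Other tissue and cell transcripts moved with the diet beside the cell division genes. Of 22 liver transcripts, 21 were lower with lard among germ-free mice (27.1% of all genes were), and 3 higher and 1 lower among conventional mice (15.4% and 15.6% of all genes). Their mean was 6.32 to 7.28 in lard-fed germ-free mice, against 7.99 to 9.25 in germ-free mice given fish oil. In lard-fed conventional mice it was 6.74 to 7.97, against 6.61 to 7.93 in conventional mice given fish oil. With that mean as a covariate, 16 of the 39 were higher in germ-free mice (10.6% of all genes) and 38 in conventional mice (16.1%). Among the 16 were Mki67 (1.22, limma adjusted p = 0.0154), Ccna2 (1.26, adjusted p = 0.0165), Bub1 (1.34, adjusted p = 0.0293) and Plk1 (0.79, adjusted p = 0.0437). In germ-free mice the liver mean itself did not overlap between the diets, and the fit gives all groups 1 slope. A part of liver transcripts and a diet effect therefore cannot be told apart there. The part of liver transcripts in the result was not tested beyond this.

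The mean of 19 macrophage markers was 10.56 to 11.10 in lard-fed germ-free mice, against 9.81 to 10.49 in germ-free mice given fish oil. In lard-fed conventional mice it was 10.33 to 11.09, against 9.69 to 10.22 in fish oil-fed conventional mice. Among germ-free mice, 14 of these 19 markers were higher on lard and 2 lower, and among conventional mice 16 were higher and 1 lower. Higher with lard were 20.4% of all genes in germ-free and 15.4% in conventional mice. Lard-fed germ-free mice 1 and 2 and lard-fed conventional mice 5 and 6, with the highest means of the cell division genes, also had the highest macrophage means of their groups (11.03 and 11.10, 11.09 and 11.01). The same mice were highest of their groups over 14 markers of lipid-associated macrophages (12.93 and 12.98, 12.83 and 12.93). So they were over 8 neutrophil and mast cell markers (7.89 and 7.51, 7.67 and 7.52). They had the lowest adipocyte means (12.35 and 12.36, 12.21 and 12.23). The adipocyte and lipid-associated macrophage lists both name Lpl and Cd36. Among fish oil-fed mice the highest macrophage and cell division means were in different mice. These were germ-free mice 3 (10.49) and 5 (7.06), and conventional mice 1 (10.22) and 2 (7.14). Between germ-free and conventional mice given fish oil, 6 macrophage and 9 lipid-associated macrophage markers were higher in germ-free mice (5.21% of all genes). There 0 were lower, and 0 of the 39 cell division genes passed. With the macrophage mean as a covariate, 12 of the 39 were higher with lard in germ-free mice (6.72% of all genes) and 4 in conventional mice (2.69%). The 12 were Mcm2, Mcm5, Rrm2, Ccna2, Ccnb2, Plk1, Aurkb, Bub1, Kif11, Kif20a, Ect2 and Mki67, and the 4 were Tyms, Plk1, Aurkb and Cdca8. Plk1 and Aurkb were in both. The markers differ by diet themselves, and the fit gives all groups 1 slope, so a share of macrophages and a diet effect in other cells cannot be told apart here. Of 14 adipocyte markers, 9 in germ-free and 11 in conventional mice were lower with lard, and of 10 mesothelial markers 7 in germ-free and 9 in conventional mice, against 27.1% of all genes lower in germ-free and 15.6% in conventional mice. Of 14 markers of lipid-associated macrophages, 8 were higher in germ-free and 11 in conventional mice, with 0 lower. Of 13 progenitor markers, 5 were higher in germ-free and 2 in conventional mice, and of 10 endothelial markers 4 were lower in germ-free and 1 was higher in conventional mice. The progenitor and endothelial counts in conventional mice are near the share of all genes. Of 11 T cell markers, 0 passed in either direction in both comparisons by limma. Their unadjusted p was under 0.05 in 2 in germ-free and 1 in conventional mice, against 10962 and 7952 of all 19938 genes. The part of these cell types in the result was not tested.

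**Figure D5:**
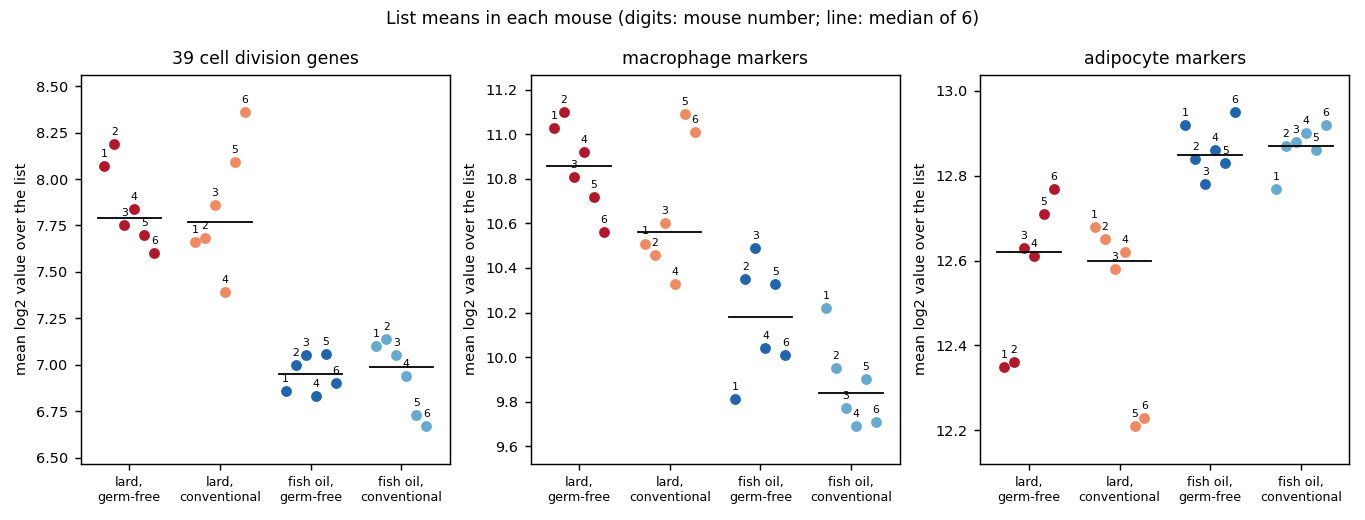
Mean log2 value over 39 cell division genes (left), 19 macrophage markers (middle) and 14 adipocyte markers (right) in each mouse. Digits are mouse numbers and lines the medians of 6; axes do not start at 0. Lard-fed germ-free mice 1 and 2 and lard-fed conventional mice 5 and 6 are high in the left and middle panels and low in the right one.

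Other genes of the cell cycle, from lists that hold none of the 40, were read in the same fit. Of 34 more genes of DNA replication, 26 were higher with lard and 1 lower among germ-free mice (median 0.56), and 27 higher and 1 lower in conventional mice (median 0.50). Of all genes, 20.4% were higher and 27.1% lower in germ-free mice, and 15.4% higher and 15.6% lower in conventional mice. Rfc4, a subunit of the clamp loader, rose by 1.40 in germ-free and 0.64 in conventional mice. Chaf1b, a histone chaperone, rose by 1.13 in germ-free and 0.79 in conventional mice. Dtl, which targets the licensing factor CDT1 for destruction, rose by 1.06 in germ-free and 0.86 in conventional mice. Rrm1, the large subunit of ribonucleotide reductase, rose by 1.05 in germ-free and 0.67 in conventional mice. In conventional mice Brca1 (0.94), Tk1, a thymidine kinase (0.89), and Uhrf1, a partner of the maintenance methyltransferase (0.88), had the largest differences. Orc6, an origin recognition subunit, was the gene that fell, by 0.28 in germ-free and 0.19 in conventional mice.

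Of 59 more genes of mitosis, 53 were higher and 2 lower in germ-free mice (median 0.61), and 53 higher and 1 lower in conventional mice (median 0.68). The shares of all genes were 20.4% higher and 27.1% lower in germ-free and 15.4% higher and 15.6% lower in conventional mice. Mad2l1, the checkpoint protein MAD2, rose by 1.54 in germ-free and 1.34 in conventional mice. The kinetochore genes Spc25 and Ska3 rose by 1.33 and 1.22 in germ-free and by 1.79 and 1.23 in conventional mice. Dlgap5, a spindle assembly factor, rose by 1.22 in germ-free and 0.82 in conventional mice, and Cenpa, the centromeric histone, by 0.97 in germ-free and 1.26 in conventional mice. Pttg1, securin, which holds back the separation enzyme, went the other way, by -0.74 in germ-free (adjusted p = 6e-06) and -0.43 in conventional mice (adjusted p = 0.0027). Cks1b, a CDK-binding subunit, differed by -0.38 in germ-free mice (adjusted p = 0.012) and by -0.26 in conventional mice, which did not pass (adjusted p = 0.099).

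Regulators that act before or above the cell division genes were less uniform. Of 39, lard-fed germ-free mice had 23 higher and 3 lower, and lard-fed conventional mice 17 higher and 1 lower. Among all genes 20.4% were higher and 27.1% lower in germ-free, and 15.4% higher and 15.6% lower in conventional mice. Ccnd1, cyclin D1, which starts the cycle with CDK4 and CDK6, rose by 1.09 in germ-free and by 1.13 in conventional mice. Cdk4 and Cdk6 rose by 0.56 and 1.27 in germ-free and by 0.44 and 0.74 in conventional mice. E2f1, an activator of replication genes, rose by 0.60 in germ-free and 0.78 in conventional mice, and E2f8, a repressor of the same family, by 0.78 in germ-free and 0.99 in conventional mice. Foxm1, an activator of mitotic genes, rose by 0.57 in germ-free and 0.76 in conventional mice. Mybl2, B-MYB, which joins MuvB on mitotic promoters, differed by 0.09 in germ-free mice (adjusted p = 0.26) and rose by 0.23 in conventional mice. Of the genes for the factors that bind the elements shown above, Nfya rose by 0.32 in germ-free and 0.51 in conventional mice. Lin54 differed by 0.12 in germ-free mice (adjusted p = 0.18) and had group means of 8.77 with lard and 8.76 with fish oil in conventional mice (adjusted p = 0.97). Wee1, which restrains CDK1, rose by 0.90 in germ-free and 0.49 in conventional mice, and the pocket protein gene Rbl1 by 0.79 in germ-free and 0.34 in conventional mice.

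Genes that hold cells in a resting state were counted in both directions. Of 12 CDK inhibitors and quiescence genes, lard-fed germ-free mice had 4 higher and 3 lower, and lard-fed conventional mice 1 higher and 3 lower. The shares of all genes were 20.4% higher and 27.1% lower in germ-free and 15.4% higher and 15.6% lower in conventional mice, so nothing particular to these 12 is read from the counts. Cdkn2c, the CDK4 and CDK6 inhibitor p18, had the largest difference, -0.88 in germ-free (adjusted p = 0.00032) and -1.05 in conventional mice (adjusted p = 6.8e-05). Cdkn1c, p57, differed by -0.63 in germ-free and -0.31 in conventional mice. Btg2, an antiproliferative gene, differed by -0.48 in germ-free mice, and Gas1, a growth arrest gene, by -0.21 in conventional mice. Cyclin G1 (Ccng1), a target of p53, rose by 0.43 in germ-free and 0.30 in conventional mice. Cdkn1b, p27, rose by 0.29 in germ-free mice (adjusted p = 0.012) and differed by -0.07 in conventional mice (adjusted p = 0.59). The probe set of Cdkn1a carries several gene names and was not used here.

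Bacterial status was compared next, within each diet. With lard, 0 of the 39 cell division genes were higher in germ-free than in conventional mice (7.48% of all genes were). Lower were 2 (8.77% of all genes). Unadjusted limma p was under 0.05 in 6 of the 39, against 5608 of all 19938 genes. With fish oil, 0 were higher (5.21% of all genes) and 0 lower (7.15%). Unadjusted limma p was under 0.05 in 2 of the 39 there, against 5239 of all genes. These shares are at or below those of all genes. Differences, germ-free minus conventional, ran from -0.33 to 0.39 with lard and from -0.27 to 0.22 with fish oil, with standard errors of 0.07 to 0.24. In both cases 0 of the 39 had groups that did not overlap in either direction. Of all 19938 genes, 319 lay fully above and 509 fully below in germ-free mice with lard, and 642 and 759 with fish oil.

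Tyms and Cdca8 were the 2 genes lower in lard-fed germ-free mice. Tyms averaged 7.90 ± 0.09 in lard-fed germ-free and 8.19 ± 0.15 in lard-fed conventional mice (SD, n = 6 each), a difference of -0.29 ± 0.07 (SE; limma adjusted p = 0.0034). Cdca8 averaged 7.0 ± 0.18 in lard-fed germ-free and 7.33 ± 0.22 in lard-fed conventional mice (SD, n = 6 each), a difference of -0.33 ± 0.10 (SE; limma adjusted p = 0.026). The groups overlapped in both genes. With fish oil, Tyms differed by 0.05 (adjusted p = 0.70) and Cdca8 by 0.19 (adjusted p = 0.23). Bub1b, at 0.39 ± 0.16, had the largest positive difference with lard and did not pass (adjusted p = 0.089).

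The calls within lard depended on which mice were kept. Lard-fed conventional mice 5 and 6 had the highest means of their group (8.09 and 8.36). Leaving them out lowers that group by selection, so no conclusion is drawn from the shift. Without both, 9 genes were higher in germ-free mice (12.6% of all genes) and 1 lower (12.9%). The 9 were Mcm3, Rrm2, Ccna2, Bub1b, Nuf2, Kif11, Kif2c, Ect2 and Mki67, and the 1 was Tyms. Without lard-fed conventional mouse 6 alone, Bub1b and Ect2 were higher (10.7% of all genes) and Tyms lower (10.9%). The call of Cdca8 ended without lard-fed germ-free mouse 5 or 6 or without lard-fed conventional mouse 3 or 6, and neither gene passed when mice 2, 4 and 5 of the lard-fed germ-free group were left out together. With the macrophage mean as a covariate, 6 genes were lower with lard (Tyms, Cdk1, Cdc20, Cdca3, Birc5 and Cdca8) and 7 with fish oil (Mcm2, Mcm3, Mcm5, Mcm6, Pbk, Ttk and Anln). In that fit 9.15% of all genes were lower in germ-free mice with lard and 7.05% with fish oil. The macrophage mean was itself higher in germ-free than in conventional mice, 10.86 and 10.67 with lard and 10.17 and 9.87 with fish oil. The adjustment and a difference by bacterial status therefore cannot be told apart in these calls.

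Whether the diet difference itself depended on bacterial status was tested as an interaction, the lard minus fish oil difference in germ-free mice minus that in conventional mice. Unadjusted limma p was under 0.05 in 4 of the 39, against 4420 of all 19938 genes. After adjustment, 0 were higher (4.38% of all genes) and 2 were lower (2.81% of all genes). The 2 were again Tyms, at -0.34 ± 0.09 (SE; limma adjusted p = 0.027), and Cdca8, at -0.53 ± 0.14 (adjusted p = 0.028). A count of 2 of 39 is close to the share of all genes, and nothing particular to the cell division genes is read from it. In both the diet difference was smaller in germ-free mice, 0.22 against 0.56 for Tyms and 0.45 against 0.98 for Cdca8. Birc5, a partner of Cdca8 in the passenger complex, differed by -0.34 ± 0.15 and did not pass (adjusted p = 0.19). Anln had the largest positive value, 0.37 ± 0.17, and did not pass (adjusted p = 0.20). The median over the 39 was 0.04 (all genes -0.04), and for 37 of them a difference between germ-free and conventional mice in the response to diet was not detected at this number of mice. Both calls ended when lard-fed germ-free mouse 5 or lard-fed conventional mouse 3 was left out, that of Tyms without lard-fed germ-free mouse 4, and that of Cdca8 without fish oil-fed germ-free mouse 5.

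The other lists were compared by bacterial status as well, where 7.48% of all genes were higher and 8.77% lower in germ-free mice with lard, and 5.21% higher and 7.15% lower with fish oil. Of the 34 further replication genes, 4 were lower in germ-free mice with lard and 3 with fish oil, and of the 59 further mitosis genes 5 with lard and 2 with fish oil, with 0 higher. Of the 39 regulators, 7 were higher and 1 lower with lard, and 3 higher and 2 lower with fish oil. Of the 12 CDK inhibitors and quiescence genes, 2 were higher with lard and 1 with fish oil, with 0 lower. Tipin, of the replication fork protection complex, was lower in germ-free than in conventional mice with both diets, with differences of -0.70 with lard and -0.59 with fish oil. Cks1b had -0.66 with lard and -0.54 with fish oil, and Orc6 -0.38 with lard and -0.28 with fish oil. With lard, Cks2, another CDK-binding subunit, had -0.71, Gins2, of the helicase complex, -0.48, Pttg1 -0.45 and Ube2c, the ubiquitin-conjugating enzyme of APC/C, -0.38. Pola2, a subunit of the primase complex, had -0.26 with lard. With fish oil, the helicase subunit gene Mcm7 had -0.36 and the kinesin Kif18a -0.33. Wee1, Cdk6 and Rbl1 were higher in germ-free mice with lard, by 0.84, 0.66 and 0.37, and Chek2, a DNA damage kinase, by 0.30. Also higher there with lard were Gas1 by 0.43 and Cdkn1b by 0.30. With fish oil, Ccne2, cyclin E2, had -0.52, Myc 0.47, Nfya 0.43, Cdkn1c 0.42 and E2f7 0.25. In the interaction Rfc4 (0.76), Pola2 (-0.47), Myc (-0.63), E2f7 (-0.39) and Gas1 (0.59) passed the threshold.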

How the data were processed

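RNA of 24 mice was hybridised to 24 one-colour Affymetrix arrays, 1 per mouse. The deposited values are log2 intensities normalized by RMA, per the submitters' processing notes; no scan date or batch is given in the sources read. Of 35556 probe sets, 21789 had 1 gene symbol, 1621 several and 12146 none; 21698 were matched by Entrez ID to the RefSeq table of GRCm38.p6. Genes with several probe sets were read from the one with the highest mean, leaving 19938. Ccnb1 and Cdkn1a were left out because their probe sets name several genes.

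Group means were fitted with limma 3.58.1 (R 4.3.3) over all 24 arrays, and 5 contrasts were tested, two-sided, with Benjamini-Hochberg adjustment over all genes. The fit was tested on simulated data. P-values test differences of group means against the spread between mice, treated as independent, and the housing is not given. No pair of arrays held identical values (0 pairs). The members and all lists were chosen with earlier results of these data known. Genes named with full values are, by role, the 2 with the lowest p in each diet comparison, and members that missed the threshold with a diet or passed it with bacterial status; for other lists, up to 4 with the largest change past the threshold per comparison and a few regulators fixed by name. Genes outside this rule are given with their differences only. Promoter windows were searched on both strands with Python 3.11.15, overlapping matches each counted. Alternatives were array centring, repeated quantile normalization, a filter on low values, another probe set choice, trend and robust variance, only the groups compared, a replicate block, marker means as covariates, and mice left out.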

Additional observations from a re-analysis of the deposited data

Results flagged for a closer look

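In 160 tests of the highest and lowest mouse of a group of 6, a mouse lay far from the others in 5, and chance gives about 1 in 20. Cdc20 was high in lard-fed conventional mouse 6 (7.68) and Cenpf in lard-fed germ-free mouse 2 (7.10), each the mouse with the highest mean of the cell division genes in its group. Ect2 (6.21) and Anln (7.46) were low in fish oil-fed germ-free mouse 4, and Anln was high in fish oil-fed conventional mouse 6 (8.42). The diet difference was smaller in germ-free than in conventional mice for Tyms (interaction -0.34) and Cdca8 (interaction -0.53).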

How the results depend on the processing

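Most counts of cell division genes changed little: 38 or 39 of those tested were higher with lard in germ-free mice, and 37 or 38 in conventional mice, under centring, repeated quantile normalization, trend and robust variance, only the groups compared, another probe set choice and the replicate block. The filter on low values left out Ttk and Kif4, and 37 and 36 of 37 were then higher. Cdc6 was the gene that passed in germ-free mice under centring, quantile normalization, the low-value filter, trend and robust variance and only the groups compared. Anln was the gene that no longer passed in conventional mice under centring, quantile normalization and only the groups compared. Covariates moved them. With the liver mean, 16 were higher in germ-free mice, and the difference of Tyms there was 0.00 (adjusted p = 0.996). That mean did not overlap between the diets in germ-free mice, so the fit cannot separate it from diet. With the macrophage mean, 12 were higher in germ-free and 4 in conventional mice, and the sign turned for Birc5 in germ-free mice (-0.03, adjusted p = 0.926) and for Pbk (-0.13, adjusted p = 0.781) and Anln (-0.02, adjusted p = 0.970) in conventional mice. The causes were not tested.

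Genes lower in lard-fed germ-free than in lard-fed conventional mice were 1 with repeated quantile normalization, with only the groups compared, and without lard-fed conventional mice 5 and 6 (9 then higher), 0 at 1.5-fold or more and when mice 2, 4 and 5 of the lard-fed germ-free group were left out, 4 with the liver mean and 6 with the macrophage mean. With fish oil, 1 was higher with the liver mean (Aurkb) and 7 lower with the macrophage mean. For the interaction, 1 was lower with centring (Cdca8), with repeated quantile normalization (Tyms) and without lard-fed conventional mice 5 and 6 (Tyms), 0 at 1.5-fold or more and when mice 2, 4 and 5 of the lard-fed germ-free group were left out, and 1 was higher with the macrophage mean (Mcm5).

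With single mice left out, 38 to 39 were higher with lard in germ-free (18.8% to 20.8% of all genes) and 36 to 39 in conventional mice (13.7% to 16.4%). In germ-free against conventional mice with lard, 0 to 2 were higher (4.96% to 10.7% of all genes) and 1 to 2 lower (6.34% to 10.9%). In the interaction 0 to 2 were lower (1.74% to 4.05%). With mouse number as a replicate block the counts were 38, 38, 2 lower, 0 and 2 lower, and no call of a cell division gene changed. Mice of the same number had correlations of their deviations between -0.50 and 0.35 over 36 pairs, and 2 of 24 mice correlated best with their own number, so the numbers were not used as pairs. The number of arrays limits the precision.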
